A study of Rattus norvegicus with 8 samples.

Results

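T cell genes were examined in lung tumor and normal lung of rats given NNK, a nitrosamine of tobacco smoke that causes lung tumors, and in blood from the control and the NNK group. The set held 10 genes, Cd3d, Cd3e, Cd3g, Cd4, Cd8a, Cd8b, Cd2, Cd5, Lck and Zap70, of the 13903 genes that could be named on the array. A probe was taken as a member when the RefSeq mRNA accession printed for it belonged to 1 of these genes, and every member had 1 probe printed in 1 spot. The array was the Arraystar rat lncRNA array, an Agilent 1-colour slide that also carries probes for mRNAs.

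The animals were male F344 rats, an inbred strain, sampled at week 95. The 3 normal lung arrays and the 3 lung tumor arrays all came from the NNK treatment group. The paper describes the tumors and normal lungs as matched, and the labels number both from 1 to 3. No lung of an untreated rat was on the arrays used here, so normal lung means tumor-free lung of exposed rats. The 2 blood arrays each held a clot of whole blood, from the control group on 1 array and from the NNK group on the other. RNA of each sample came from whole tissue or clot, so the number of cells and the RNA per cell cannot be told apart in any value below. Nor do the values tell which cell type, T cell or other, a transcript came from.

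T cells recognise peptides through a receptor whose antigen-binding chains are carried to the surface by the CD3 chains, encoded by Cd3d, Cd3e and Cd3g, and by the zeta chain, encoded by Cd247. Helper T cells carry the coreceptor CD4, and cytotoxic T cells carry CD8, usually a pair of an alpha chain from Cd8a and a beta chain from Cd8b. When the receptor binds, the kinase Lck, held by the coreceptors, phosphorylates the CD3 and zeta chains, and the kinase ZAP-70 docks there and passes the signal on. CD2 is an adhesion receptor of T and NK cells, and CD5 damps receptor signals. In the lung, T cells lie in the airway wall, the alveolar septa and the vessels, and tumors may hold few or many of them.

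Promoter sequence is shown for the genes that the results below turn on, namely the neighbours Cd3d and Cd3e, which differed in their size of change, and Cd8a and Zap70, which both fell at least 2-fold in tumor. RefSeq held a promoter in build GRCr8 for 8 of the 10 members. The 250 bases before the transcription start are given 5′ to 3′ on the strand of the gene. Capitals mark a match, on either strand, to AGGAAG, the core bound by ETS factors, a family that includes Ets1.
Cd3d, chr8:54185269-54185518, plus strand: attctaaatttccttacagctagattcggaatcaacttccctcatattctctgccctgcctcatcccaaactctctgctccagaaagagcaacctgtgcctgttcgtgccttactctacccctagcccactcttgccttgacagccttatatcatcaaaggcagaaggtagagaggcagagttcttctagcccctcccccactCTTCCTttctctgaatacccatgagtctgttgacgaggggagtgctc
Cd3e, chr8:54211771-54212020, minus strand: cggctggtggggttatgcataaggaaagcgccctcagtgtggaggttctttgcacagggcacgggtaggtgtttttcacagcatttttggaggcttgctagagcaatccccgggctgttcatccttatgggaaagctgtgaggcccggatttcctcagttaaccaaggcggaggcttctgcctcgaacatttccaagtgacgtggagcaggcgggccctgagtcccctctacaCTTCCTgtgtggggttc
Cd8a, chr4:104923866-104924115, plus strand: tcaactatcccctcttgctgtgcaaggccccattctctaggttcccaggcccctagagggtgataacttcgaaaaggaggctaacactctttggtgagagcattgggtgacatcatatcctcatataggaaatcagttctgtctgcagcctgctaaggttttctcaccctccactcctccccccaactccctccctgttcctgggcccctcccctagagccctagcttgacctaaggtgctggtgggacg
Zap70, chr9:46485355-46485604, plus strand: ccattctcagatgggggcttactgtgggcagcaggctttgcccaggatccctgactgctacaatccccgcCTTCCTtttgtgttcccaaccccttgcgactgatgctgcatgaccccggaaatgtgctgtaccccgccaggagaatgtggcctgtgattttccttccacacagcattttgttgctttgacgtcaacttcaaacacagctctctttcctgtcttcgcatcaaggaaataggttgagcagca
The ETS core began 47 bases before the start in Cd3d, 17 bases before it in Cd3e and 180 bases before it in Zap70, while these letters were not in the window of Cd8a. Of the 8 members with a promoter, 6 held the core, and 29.5% of 33465 rat promoters of the same length held it. The other letters searched were TGTGGT for RUNX factors, held by Cd2 and Lck and by 14.5% of all promoters, and CAGCTG, an E box, held by Cd3g, Cd2 and Cd5 and by 12% of all promoters. A GATA core (AGATAA) and a TATA box (TATAAA), held by 10.3% and 12.9% of all promoters, were in none of the members' windows. Cd3g, Cd3d and Cd3e lie side by side in the genome, and a single annotated pseudogene separates Cd8b from Cd8a.

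Before values were compared, the arrays were checked. The median processed signal was 25.0 to 35.6 on the lung arrays, and the 75th percentile was 1191 to 1329. On the control blood array the 75th percentile was 95.4 and on the NNK blood array 206. The scanner software marked 4.92% to 8.62% of the spots above background as outliers on the normal lung arrays, and 15.9% to 25.3% on the tumor arrays. All 3 normal lung arrays and tumor array 1 were scanned on 1 slide, tumor arrays 2 and 3 on another and both blood arrays on the third. Normal lung arrays 2 and 3, and tumor arrays 2 and 3, differed from each other by less than the noise between spots of the same probe on an array, with variance ratios of 0.819 and 0.585, so counts with each such pair taken as 1 sample are given below. The variance ratio was 1.06 for normal arrays 1 and 2 and 1.38 for normal arrays 1 and 3. Nothing in the labels says that same-group arrays came from separate rats, so the p-values measure only the spread between these arrays. A description field of the NNK blood array repeats the text of tumor 3, while its title, source and tissue name a clot. Sftpc, the surfactant gene that marks type 2 alveolar cells, was not above background on either blood array. Other genes of the type 2 list went the other way. Sftpa1, Sftpd, Napsa and Slc34a2 were above background on both blood arrays, with Napsa at 11.49 in control and 13.02 in NNK blood, and Sftpb and Lamp3 on 1.

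In order to assess the T cell genes in tumor, the signals of the lung arrays were brought to 1 distribution and compared as log2 values by limma. A gene was called when it differed at least 2-fold with an adjusted p of at most 0.05. Of the 10 members, 9 exceeded background clearly on 3 or more of the 6 lung arrays, and 8 had enough unmarked spots to be tested. Cd8a and Zap70 fell at least 2-fold in tumor and no member rose, against 15.5% of 12471 probes called lower and 13.5% called higher. By the adjusted p alone, 5 of the 8 members were lower and none was higher, against 31.4% and 33.7% of all probes. The median log2 difference of the tested members was -0.54, where that of all probes was 0.07.

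**Figure D1:**
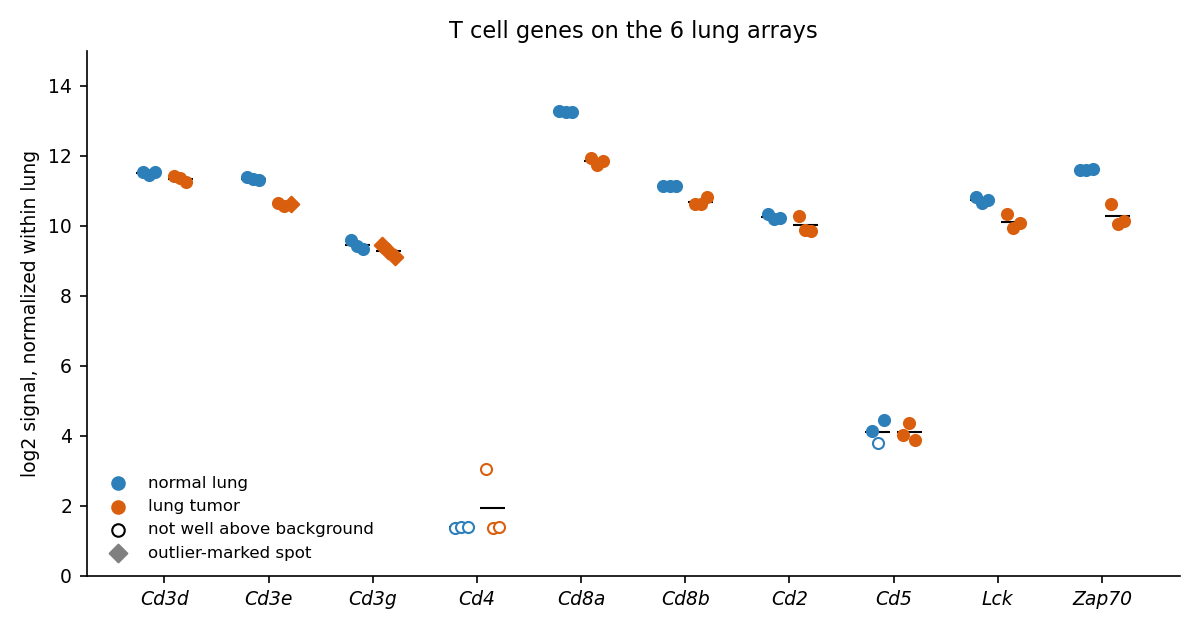
Log2 signal of the 10 T cell genes (y axis, normalized within the lung arrays) on the 3 normal lung arrays in blue and the 3 tumor arrays in orange, with the group mean as a line. Cd8a and Zap70 show the widest gaps between the groups, Cd4 lies at the bottom with open points that are not above background, and diamonds are spots marked as outliers.

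Among the CD3 chains, Cd3d stayed close in both tissues. Its log2 signal was 11.55, 11.44 and 11.53 on the normal lung arrays and 11.42, 11.36 and 11.26 on the tumor arrays. The tumor values lay just below the normal ones without overlap, but the difference of -0.16 (SE 0.066) did not pass the test at an adjusted p of 0.0814. It passed by the adjusted p, at under 2-fold, with scaling to the 75th percentile (-0.22, adjusted p = 0.0430) and without tumor array 1 (-0.20, adjusted p = 0.0404). Cd3e, from the gene next to it, gave 11.40, 11.33 and 11.31 in normal lung and 10.64, 10.55 and 10.63 in tumor. Every tumor array was below every normal array. The spot on tumor array 3 was marked as an outlier and left out of the fit, which gave a difference of -0.75 (SE 0.068, adjusted p = 0.000894). With that spot kept, the difference was -0.73 with an adjusted p of 0.000150. Cd3e thus passed the test of p but its change was smaller than 2-fold. Cd3g gave 9.58, 9.43 and 9.34 in normal lung and 9.45, 9.26 and 9.10 in tumor, and the groups overlapped. All 3 of its tumor spots were marked as outliers, so it had a test only with marked spots kept, which gave -0.18 (SE 0.115, adjusted p = 0.212).

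Of the coreceptors, Cd8a fell at least 2-fold and Cd8b was lower by less. Cd8a, the alpha chain, had log2 signals of 13.28, 13.26 and 13.24 in normal lung and 11.95, 11.73 and 11.85 in tumor, where the processed signal itself was 9986 to 11050 and 3315 to 3936. The groups were far apart compared with the spread within either. The difference was -1.42 (SE 0.071, adjusted p = 3.70e-05), a 2.67-fold fall. With near-identical arrays counted once it was -1.40 with an adjusted p of 0.00377. Cd8b, the beta chain, gave 11.14 on each of the normal lung arrays and 10.61, 10.63 and 10.82 in tumor. It was lower in tumor on every array, by 0.45 on the log2 scale (SE 0.072, adjusted p = 0.00318), which is under 2-fold. The Cd4 probe was not well above background on any of the 8 arrays, with processed signals of at most 7, so these data hold no measured level of Cd4, and helper T cells had no marker among the members.

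Both receptor kinases were lower in tumor by the adjusted p, and Zap70 fell at least 2-fold. Zap70 gave 11.61, 11.58 and 11.61 in normal lung and 10.61, 10.05 and 10.14 in tumor. Tumor array 1, which shared a slide with the normal arrays, was the highest of the tumor arrays. The difference was -1.33 (SE 0.155, adjusted p = 0.000886), a 2.52-fold fall, and -1.25 with an adjusted p of 0.0196 when near-identical arrays were counted once. With the slide as a block the difference was -0.99, just short of 2-fold. Tumor arrays 2 and 3 were alone on their slide, so this block compares tumor array 1 alone with the normal arrays. Lck gave 10.83, 10.66 and 10.73 in normal lung and 10.34, 9.93 and 10.07 in tumor. All tumor arrays were below all normal arrays, with a difference of -0.63 (SE 0.120, adjusted p = 0.00621). The difference was -0.40 with the slide as a block, which again rests on tumor array 1. With near-identical arrays counted once the adjusted p was 0.0550.

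Neither accessory surface protein passed the test over all 6 arrays. Cd2 gave 10.34, 10.21 and 10.23 in normal lung and 10.29, 9.89 and 9.85 in tumor, so tumor array 1 lay among the normal arrays. The difference of -0.25 (SE 0.135) had an adjusted p of 0.149 and turned to 0.027 with the slide as a block. Without tumor array 1 it was -0.39 with an adjusted p of 0.00465. Cd5 was dim, with processed signals of 14.1 to 23.9 on the lung arrays, and was above background on 5 of 6. Its log2 signals were 4.13, 3.78 and 4.44 in normal lung and 4.02, 4.36 and 3.89 in tumor, and the groups overlapped fully. The difference was -0.02 (SE 0.208, adjusted p = 0.926). Across the members, 6 had all tumor arrays below all normal arrays, a pattern shared by 34.8% of all probes tested.

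Partner proteins were set against each other in 3 pairs chosen with the members' values known. The log2 difference between tumor and normal lung of Cd8a minus that of Cd8b was -0.97, taken from the gap between the 2 probes on each array. For Cd3e minus Cd3d, with the marked Cd3e spot on tumor array 3 kept, it was -0.57, and for Zap70 minus Lck it was -0.70. In each pair the 3 tumor arrays and the 3 normal arrays did not overlap in this gap. On tumor array 1 alone, the tumor array on the slide of the normal arrays, these values were -0.79, -0.62 and -0.59 against the mean of the normal arrays. The two-sided exact permutation p was 0.1 for each of the 3 pairs, raw and adjusted, which is the smallest that 3 arrays against 3 can give, so no pair could pass a threshold of 0.05. A probe's response to its target differs between probes, so these values compare changes of signal and are not ratios of transcripts.

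To set the members against the rest of their pathway, 87 further genes in 5 lists were counted, of which 69 were on the array and 46 were tested in lung. Of these, 17 were called lower in tumor and 2 higher, against 15.5% and 13.5% of all probes tested, with a median difference of -0.53. The genes higher were Cd86 and Lef1, neither above background on any normal lung array, so both entered the test only through the tumor arrays. With normexp background correction 14 genes were lower and 0 higher. By the adjusted p alone 26 were lower and 9 higher, against 31.4% and 33.7% of all probes. With outlier-marked spots kept, 55 could be tested, and 21 were lower and 3 higher.

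Among 13 tested partners of the receptor and its proximal signalling, 3 fell at least 2-fold and none rose, against 15.5% and 13.5% of all probes. Sh2d1a, encoding the adaptor SAP, fell by 1.71 on the log2 scale (SE 0.063, adjusted p = 1.44e-05), and Grap2, encoding the adaptor GADS, fell by 1.40 (SE 0.178, adjusted p = 0.00126). The third was Cd247, named here because its product is the zeta chain of the receptor itself. Its log2 signals were 13.17, 13.06 and 13.15 in normal lung and 12.02, 11.92 and 11.92 in tumor. It fell by 1.17 (SE 0.061, adjusted p = 4.03e-05), a larger difference than those of Cd3d, Cd3e and Cd3g. The list's median difference was -0.55.

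Cytotoxic and NK genes fell together. All 7 tested members of the list were called lower, against 15.5% of all probes, with a median difference of -2.25. These genes are used by NK cells as well as by cytotoxic T cells. Klrb1a, a lectin-like receptor of NK cells, gave 12.81, 12.71 and 12.73 in normal lung and 9.52, 9.28 and 9.21 in tumor. It fell by 3.41 (SE 0.097, adjusted p = 7.04e-06). Gzmk, a granzyme of cytotoxic granules, fell by 2.64 (SE 0.061, adjusted p = 1.48e-05). With marked spots kept, 9 of 9 fell, Gzma and Gzmb among them. The falls of the list were larger than that of Cd8a in all but Klrk1, which fell by 1.03. Ncr1, Ifng and Ctsw were not above background on any lung array, so 3 of the 12 genes on the array gave no level there.

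Of 10 costimulatory and inhibitory genes tested, 3 fell and 1, the ligand gene Cd86, rose, with a median of -0.46. Of all probes, 15.5% were called lower and 13.5% higher. Cd40, which antigen-presenting cells carry, fell by 2.33 (SE 0.220, adjusted p = 0.000389), and Cd27, a costimulatory receptor of T cells, fell by 1.38 (SE 0.086, adjusted p = 7.89e-05). Cd86, a ligand for CD28 on antigen-presenting cells, was the gene that rose. Its probe stayed below the background limit in normal lung, with a log2 mean of 2.12 there and 5.46 in tumor, so its signal was at least 3.05-fold higher in tumor. The adjusted p of 0.00121 from limma used those values below background and does not test the bound. Ctla4 and Cd40lg were not above background on any of the 8 arrays. Among 5 transcription factors tested, Satb1, a chromatin organiser of thymocytes, fell by 1.47 (SE 0.056, adjusted p = 1.52e-05) and Ets1 by 1.37 (SE 0.056, adjusted p = 1.88e-05). Ets1 is also active in endothelial cells. Lef1 was called higher (adjusted p = 0.00446) from values that did not clear background in normal lung, and its bound was at least 1.85-fold, under the 2-fold cutoff. Foxp3, the factor of regulatory T cells, was not above background on any lung array.

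Of 11 cytokine, cytokine receptor and homing genes tested, 2 fell at least 2-fold and none rose, with a median of -0.26. The falls were near the share of all probes called lower, 15.5%, where 13.5% were called higher. Xcl1, a chemokine made by activated T and NK cells, fell by 1.73 (SE 0.498, adjusted p = 0.0268). Its probe was dim, at 5.12, 4.71 and 5.20 in normal lung and 4.36, 2.94 and 2.53 in tumor. It was above background on 2 of the 3 tumor arrays, so the size of its fall rests partly on a value below background. With marked spots kept, 15 genes of the list were tested, 4 fell and 1 rose. The gain was Itgal, the alpha chain of the integrin LFA-1, at 1.78 (SE 0.416, adjusted p = 0.0122). Its log2 signals were 12.73, 14.15 and 14.18 on the tumor arrays and at most 11.99 in normal lung. Tumor array 1, on the slide of the normal arrays, was less than 2-fold above each of them. The size of the gain thus rests mostly on the near-identical tumor arrays 2 and 3, alone on another slide. Ccl5, a chemokine of cytotoxic cells, fell by 2.58 and S1pr1, the receptor lymphocytes use to leave tissue, by 2.44. Itgal, Ccl5 and S1pr1 were picked out after their values were seen.

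**Figure D2:**
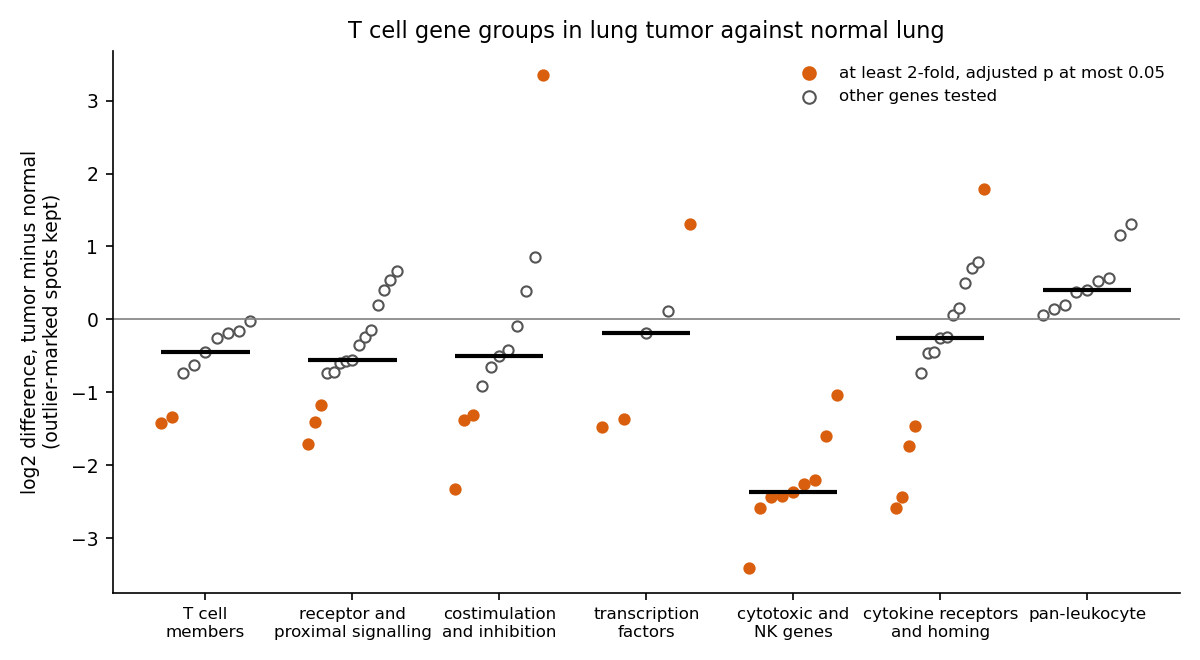
Log2 difference between tumor and normal lung (y axis, marked spots kept) for each tested gene of the T cell set, of 5 T cell pathway lists and of the pan-leukocyte list; filled points passed both thresholds and lines are list medians. All 9 cytotoxic and NK genes lie below -1, the T cell set lies below 0, and all 9 pan-leukocyte genes lie above 0.

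Markers of other cells moved in both directions. The counts of each list stand against 15.5% of all probes called lower and 13.5% called higher. None of the 6 tested pan-leukocyte genes was called in either direction, while 3 were higher by the adjusted p, against 33.7% of all probes. The summed signal of the 9 pan-leukocyte genes was 205397 to 206493 in normal lung and 276173 to 283559 in tumor, on the 8 arrays normalized together. Ptprc (CD45), given by the brightest of its 5 probes, and Coro1a had too many marked spots to be tested. Cd53 was higher by 0.57 (adjusted p = 0.00525). Of the red blood cell list, 4 of 6 fell, with a summed signal of 188125 to 199271 in normal lung and 98484 to 107521 in tumor, and Alas2, the first enzyme of heme synthesis in erythroid cells, fell by 3.09. All 3 tested platelet genes and all 3 tested endothelial genes fell. The summed signals were 173014 to 183456 and 24738 to 25140 for endothelial genes. Those for the platelet list went the other way, from 2262 to 2403 in normal lung and from 3785 to 4461 in tumor, where Pf4, which was not tested, weighs most. Ppbp and Gp9 were not above background on any tumor array, so their falls are bounds of at least 4.48-fold and 3.42-fold. Of the neutrophil list, 1 of 4 tested fell (summed signal 7471 to 7880 against 2080 to 2547), and of the B cell list 1 of 5 rose and 1 fell (16784 to 17030 against 30941 to 33689). No tested macrophage gene was called (111171 to 119034 against 124151 to 144975), and Marco and Cd163 were not above background on any lung array. The type 1 alveolar list fell in 4 of 6 (1349450 to 1392580 against 320328 to 332840), none of 6 tested type 2 alveolar genes was called, and 3 of 6 tested epithelial genes rose (175909 to 179621 against 280247 to 291179). The part of blood content, vessel content and epithelial content in the falls of Cd8a, Zap70 and the cytotoxic genes was not tested.

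In blood, with 1 array a group and no replicate, the control and the NNK clot were compared by fold without a test. Of the 9 members compared, 5 were at least 2-fold higher in NNK blood and none was at least 2-fold lower, against 23.1% and 19.1% of 14452 probes. The median log2 difference was 1.97 for the members and -0.11 for all probes.

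Cd8a had a log2 signal of 8.39 in control blood and 11.50 in NNK blood, 8.66-fold higher. Cd3e went from 8.36 to 10.49, 4.38-fold higher, and Cd3g from 8.05 to 10.02, 3.92-fold higher. Both kinases were higher as well. Zap70 was 7.19 in control blood and 9.53 in NNK blood, 5.08-fold higher, and Lck was 6.99 and 9.11, 4.36-fold higher. Before normalization these 5 probes read 86.4 to 244 in control blood and 726 to 3189 in NNK blood.

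Cd3d, Cd8b and Cd2 were bright on both blood arrays and close between them. Cd3d was 12.73 in control blood and 12.47 in NNK blood, with processed signals of 6374 and 6056. Cd8b was 14.02 and 14.06, with processed signals of 16127 and 17522. Cd2 was 13.40 and 12.87. When the 75th percentile of each array was used for scaling in place of the whole distribution, all probes shifted to a median of -0.26, and Cd3d, Cd8b and Cd2 read -1.18, -0.99 and -1.52, so 2 members were then at least 2-fold lower and the same 5 genes were still higher. Cd5 was above background in control blood only, at 4.82, and in this normalization the bound was at least 1.49-fold lower in NNK blood. The bound depended on the processing. The log2 difference of Cd5 ran from -1.28 to -0.29 over the settings, and before normalization its probe read 17.2 in control and 25.7 in NNK blood. The 2 chains of CD8 thus parted again on these arrays, as the NNK-to-control difference of Cd8a exceeded that of Cd8b by 3.07, and that of Cd3e exceeded that of Cd3d by 2.39. For Zap70 and Lck the excess was 0.22.

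**Figure D3:**
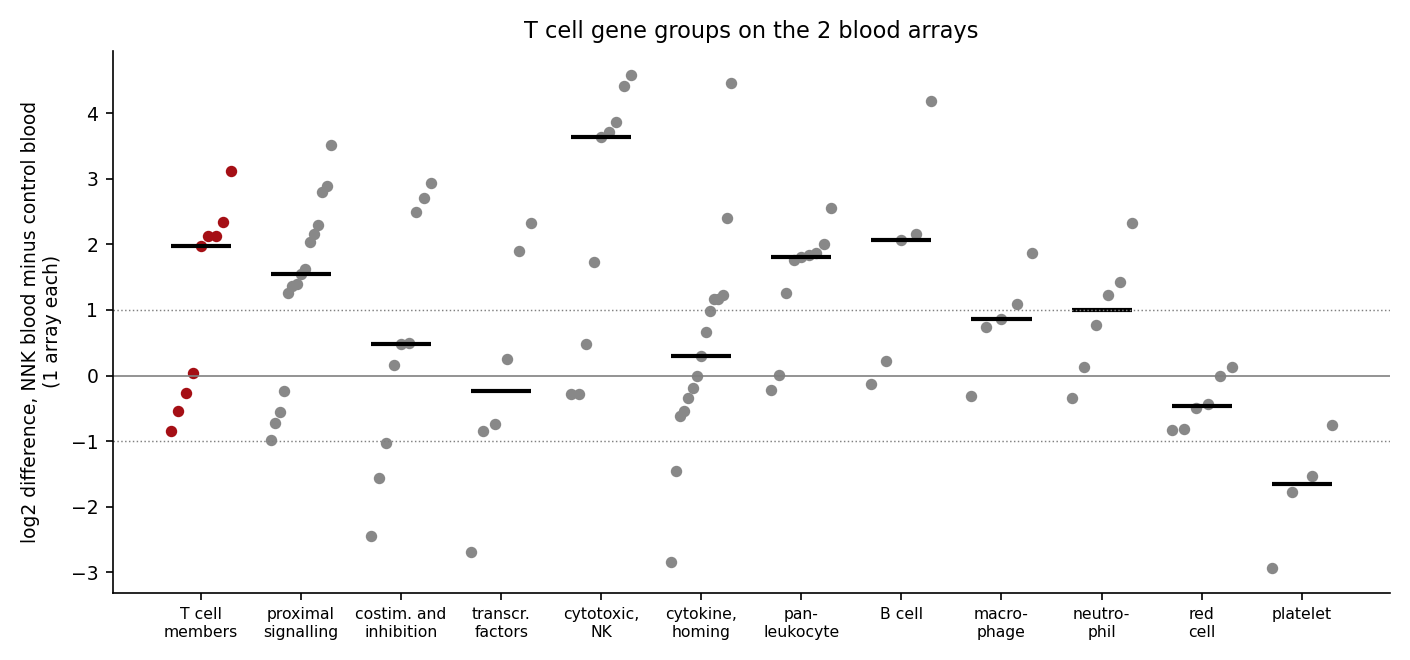
Log2 difference between NNK blood and control blood (y axis, 1 array each) for the T cell set in red and for other lists in grey; lines are list medians and dotted lines mark 2-fold. The T cell set splits into 5 genes near or above 2 and 4 genes at 0.05 or lower, and pan-leukocyte and cytotoxic genes also lie mostly above 1.

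Of 54 pathway genes compared in blood, 27 were at least 2-fold higher in NNK blood and 6 lower, with a median difference of 1.07. Of all probes compared, 23.1% were higher and 19.1% lower, and each list count below stands against these shares. Of the proximal signalling list 11 of 15 were higher and none lower, and Cd247 went from 7.79 to 11.30, a log2 difference of 3.52. Of the cytotoxic and NK list 6 of 9 were higher, with a median of 3.64. Gzmk differed by 3.86, while Klrb1a, outside these 9 because of an outlier-marked spot, differed by 0.63. The other lists were mixed, with 3 of 9 costimulatory and inhibitory genes higher and 3 lower, 2 of 6 transcription factors higher and 1 lower (median -0.24), and 5 of 15 cytokine receptor and homing genes higher and 2 lower (median 0.30). Prf1, encoding perforin, was bright on both arrays at 15.96 and 15.68, as Cd3d, Cd8b and Cd2 were. General leukocyte genes moved the same way. Of 9 pan-leukocyte genes 7 were at least 2-fold higher, with a summed signal of 178380 in control and 297187 in NNK blood. Ptprc, by its brightest probe, was higher by 1.26 on the log2 scale. Of the neutrophil list 3 of 6 were higher and of the B cell list 3 of 5, while no red blood cell gene of 6 was 2-fold apart and 3 of 4 platelet genes were lower. Whether the leukocyte share of the 2 clots differed was not tested.

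To order the tissues, all 8 arrays were brought to 1 distribution, and each member was expressed as a log2 difference from its mean in normal lung. Of the 9 measured members, 6 were higher on both blood arrays than on any lung array and none was lower on both, against 35.8% and 43.5% of 12154 probes. The same 6 genes were above lung in all 5 normalizations tried. They include Cd5, which was not above background in NNK blood. Of the 8 members above background on both blood arrays, 5 were above lung. Before normalization only Cd3d, Cd8b and Cd2 were above every lung array on both blood arrays. In control blood the processed signal of Cd3e was 239, against 1519 to 2764 on the lung arrays. That of Cd3g was 190, against 586 to 729, and Cd5 at 17.2 lay within its lung range. On the normalized scale Cd2 stood 5.82 above normal lung in control blood and 5.47 in NNK blood. Cd8b stood at 5.45 and 5.49, and Cd3d at 4.28 and 4.12. Cd3g was at 2.16 and 4.19, Cd3e at 0.89 and 2.89, and Cd5 at 1.48 and 0.33.

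For the remaining members, the blood arrays lay on opposite sides of normal lung under this scaling. Cd8a was at -0.91 in control blood and at 1.80 in NNK blood, Lck at -0.64 and 2.22, and Zap70 at -1.07 and 1.87. NNK blood was the highest of the groups for these 3 genes under each of 3 scalings over the 8 arrays, at 0.86 to 2.48 above normal lung. It was not so before normalization, since the processed signals of these genes in NNK blood (3189, 726 and 945) were below those of every normal lung array, on an array with a lower 75th percentile. The place of control blood depended on the scaling. For Lck it was at 0.03 in the authors' normalized values, no longer below normal lung. For Lck and Zap70 it lay within the range of the tumor arrays in the quantile and 75th percentile scalings and above it in the authors' values. For Cd8a it lay above the tumor arrays in the quantile and authors' scalings and at -1.71, below them, with the 75th percentile. For Cd3e and Cd3g NNK blood was highest and control blood second in the quantile scaling, and for Cd3d and Cd2 control blood was highest. For Cd8b the blood arrays were 0.03 apart and had no order.

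**Figure D4:**
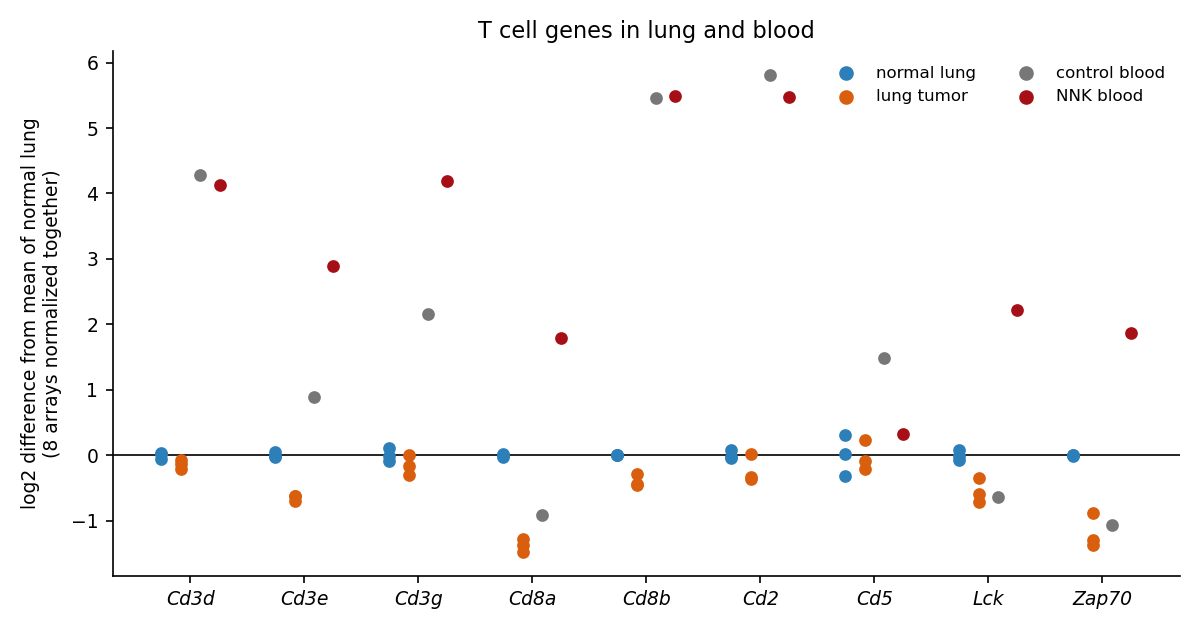
Log2 difference from the mean of normal lung (y axis, 8 arrays normalized together) for the 9 measured T cell genes on each array, in blue for normal lung, orange for tumor, grey for control blood and red for NNK blood. Cd3d, Cd8b and Cd2 stand 4 or more above lung on both blood arrays, whereas for Cd8a, Lck and Zap70 only NNK blood stands above normal lung in this scaling; Cd5 in NNK blood was not above background.

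Over the 8 arrays, the members fell along 2 patterns. Pearson's r was 0.999 between Cd3d and Cd2, 0.998 between Cd3d and Cd8b and 0.990 between Cd8a and Zap70, but 0.518 between Cd8a and Cd8b and 0.431 between Cd3d and Zap70. Cd3e lay between, at 0.856 with Cd3d and 0.851 with Cd8a. The arrays share a tissue within each cluster and the blood arrays share a slide, so these values describe mainly the distance between blood and lung and, for the second pattern, between the blood arrays. Of 4358 mRNA probes measured on all arrays, those most like Cd3d included Ucp2, Dkkl1, Klf1 and Clcn6, with r of 0.9997 to 0.9999 over the 8 arrays. Klf1 encodes an erythroid transcription factor and was on the red blood cell list. Its within-tissue values were 15.09 in control and 14.60 in NNK blood, against 9.07 to 9.12 in normal lung and 8.52 to 8.85 in tumor. With marked spots kept, the 5 probes most like Cd3e out of 6907 were Slc2a6, Fmnl1, Dbp, Egfl8 and Grk6, with r of 0.994 to 0.998. This second ranking was made after the values of Cd3e had been seen.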

How the data were processed

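RNA of 8 rat samples was hybridised to 1-colour Agilent arrays. The deposited scanner files, written by Agilent Feature Extraction 10.5.1.1 per the file headers, hold background-corrected processed signals (intensity) for each spot. The authors also deposited a table of quantile-normalized log2 values, used here as an alternative. Of 24684 probes, 15321 carried an mRNA accession, and 14274 of these (93.2%) were named through RefSeq. Outlier-marked spots were left out, spots of a probe were averaged, and signals were quantile-normalized on the log2 scale within lung, within blood or over all arrays. A gene with several probes was given by the brightest. Probes above background on at least 3 of 6 lung arrays (1 of 2 blood arrays) with at least 2 values a group were tested with limma 3.58.1 in R 4.3.3 and Benjamini-Hochberg adjustment, two-sided, after a check on simulated data. Where a group was wholly below background, a bound was computed from the lowest signal above background on each array.

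The members and gene lists were chosen with earlier results of these data known. Named were all members, the 2 largest rises and falls called in each pathway list, the first 3 genes of each marker list, and the 5 probes most like Cd3e, or like the next CD3 chain measured on all arrays. Some genes that this rule names are not reported here. Tumor and normal lung were paired by the same number in the labels, which do not themselves state the pairing. Deviations of same-numbered arrays correlated at 0.143, -0.041 and 0.160. Arrays with unlike numbers gave -0.189 to 0.140, so these values do not show that the numbers mark pairs. Alternatives were another scaling, background correction, a signal floor, other filters, marked spots kept, the authors' values, the methods' t-test, a replicate or slide block, near-identical arrays counted once, and leaving out each array. The number of arrays limits the precision.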

Additional observations from a re-analysis of the deposited data

How the results depend on the processing

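The count of 2 members called lower in tumor was kept under all alternatives but 2. With the slide as a block it was 1, and with all 3 normal lung arrays counted as 1 sample and tumor arrays 2 and 3 as another, a setting chosen after seeing the data, it was 1 as well. In that setting Cd8a had an adjusted p of 0.0495 and Zap70 of 0.105, and 10 pathway genes were called in place of 19. This leaves 1 normal sample against 2 tumor samples, so the spread within normal lung was taken from the tumor samples. Leaving out each array in turn gave 2 members each time and 16 to 19 pathway genes. With the replicate block, the pairing gave 2 members and 19 pathway genes and changed no member's call.

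Pathway genes called were 14 lower and 0 higher with normexp, 16 and 0 with a filter on all 6 lung arrays, and 12 and 1 by the methods' paired t-test. Among members that did not pass the test, Cd2 turned to 0.027 with the slide as a block and was -0.39 without tumor array 1 (adjusted p = 0.00465). Cd3d had an adjusted p of 0.0430 with 75th percentile scaling and of 0.0404 without tumor array 1. Cd5 turned to 0.19 with scaling to the 75th percentile and to 0.092 with another background correction (normexp), and leaving out each array in turn gave -0.19 to 0.14, above 0 without normal array 3 (0.14), tumor array 1 (0.01) or tumor array 3 (0.08). The cause was not tested. Cd8b had an adjusted p of 0.0524 by the methods' paired t-test. With normexp, 967 probes were called higher and 1256 lower in tumor, in place of 1683 and 1929, and 1488 and 839 probes were 2-fold higher and lower in NNK blood, in place of 3339 and 2757. The levels of Cd5 and the absence of a Cd4 level were limited by signal over background.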
